A study of Homo sapiens with 6 samples.

Results

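The genes described here are the FGF receptors FGFR1, FGFR2, FGFR3 and FGFR4, the receptor adaptor FRS2, and the inhibitors of receptor signalling SPRY1, SPRY2, SPRY4, SPRED2 and DUSP6, in LNCaP cells with and without knockdown of prostate-specific membrane antigen (PSMA, encoded by FOLH1). LNCaP is an established human prostate cancer cell line. All probe sets whose gene symbol in the platform's annotation is exactly one of these 10 symbols were taken, which gave 29 of the 22277 probe sets on the array. They represent 9 of the 10 genes, out of 11963 genes with a probe set of their own, and FRS2 was not analysed here for want of one. The genes were proposed with their knockdown-to-control differences already known, so those differences are given as a description without p-values.

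The 6 arrays form a control and a knockdown group of 3 each. Control cells were LNCaP grown in RPMI and labelled as untreated and PSMA-positive. Knockdown cells were LNCaP in the same medium, transduced with a retroviral microRNA-embedded short hairpin RNA against PSMA. No label states if an empty vector was used in the controls, if the knockdown line is a clone or a pool, or if the 3 arrays of a group came from separate cultures. The spread between arrays may therefore be technical.

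FGF receptors are tyrosine kinases that bind fibroblast growth factors together with heparan sulfate and pass the signal through the adaptor FRS2 to the RAS and ERK kinases. Sprouty proteins (SPRY) and the related SPRED proteins restrain that route, and DUSP6 removes the activating phosphates from ERK in the cytoplasm. Transcription of Sprouty and DUSP6 genes is itself raised by ERK activity in many cell types, which makes them feedback inhibitors. In the prostate, FGF signals classically pass from stroma to epithelium.

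The promoter windows of FGFR3, SPRY1 and SPRY2 are shown because these members had the largest differences on the deposited values. Each window runs from 250 bases before to 50 bases after a RefSeq transcript start on GRCh38.p14, is written 5′ to 3′ on the gene's strand, and has in capitals any match to 3 motifs searched on both strands. The motifs were the ETS core CCGGAA, the AP-1 site TGANTCA and the E-box CACGTG, none of which overlapped another in these windows. FGFR3 is at chr4:1793043-1793342 on the plus strand, SPRY1 at chr4:123398136-123398435 on the plus strand and SPRY2 at chr13:80341077-80341376 on the minus strand.
FGFR3: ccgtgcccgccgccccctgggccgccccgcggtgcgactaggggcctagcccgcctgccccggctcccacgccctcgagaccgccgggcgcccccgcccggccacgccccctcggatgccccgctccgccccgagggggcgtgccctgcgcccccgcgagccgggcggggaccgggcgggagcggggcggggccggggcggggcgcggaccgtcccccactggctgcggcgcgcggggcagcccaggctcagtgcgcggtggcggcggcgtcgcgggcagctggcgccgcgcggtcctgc
SPRY1: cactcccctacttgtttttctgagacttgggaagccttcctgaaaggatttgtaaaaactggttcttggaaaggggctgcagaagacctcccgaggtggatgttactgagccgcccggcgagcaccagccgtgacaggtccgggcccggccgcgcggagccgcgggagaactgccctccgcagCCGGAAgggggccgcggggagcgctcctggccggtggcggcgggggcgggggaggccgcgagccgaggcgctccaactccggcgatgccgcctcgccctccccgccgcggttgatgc
SPRY2: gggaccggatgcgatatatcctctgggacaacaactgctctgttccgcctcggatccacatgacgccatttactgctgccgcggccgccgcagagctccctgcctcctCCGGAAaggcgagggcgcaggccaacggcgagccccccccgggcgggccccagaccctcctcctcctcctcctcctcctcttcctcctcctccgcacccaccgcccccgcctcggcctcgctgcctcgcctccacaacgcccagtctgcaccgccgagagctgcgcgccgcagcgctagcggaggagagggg
The SPRY1 window holds 1 ETS core, starting at -67 from the transcript start, and the SPRY2 window holds 1, starting at -142. The FGFR3 window, with a GC content of 86.3%, holds none of the 3 motifs. The table lists 1 further window for SPRY1 and 2 further windows for SPRY2, at other transcript starts, and none of these holds a match. The window shown for SPRY1 and for SPRY2 is thus the only one of its gene with a match, and need not be representative. Over 18 windows of 9 member genes (all but FGFR1, whose promoter was not searched), 3 held the ETS core, against 17.2% of all 35116 windows in the table. The third of them belongs to FRS2. The AP-1 site was in 1 of the 18 windows (SPRED2; 7.71% of all windows) and the E-box in 1 (FGFR4; 7.26%). These are letter matches only, and their frequency among the members was close to that of all windows.

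The deposited values are GCRMA intensities, given here on the log2 scale. The bright probe sets shared by FOLH1 and its near-identical copy FOLH1B were lower in every knockdown array, by log2 differences of -2.23 to -2.73. The dimmer probe set for FOLH1 alone was at 6.35, 6.44 and 6.35 in control and 5.34, 6.05 and 5.37 in knockdown arrays, a log2 difference of -0.79. Of the other checks on the arrays, the 18 hybridisation control probe sets averaged 11.34 ± 0.08 in control and 10.51 ± 0.13 in knockdown arrays (SD, n = 3), and the 5′ minus 3′ signal of beta-actin was -2.77 ± 0.12 and -3.59 ± 0.22 (SD, n = 3). These measures separated the groups (exact permutation test, two-sided, p = 0.1, the smallest that 3 arrays against 3 allow), so for every difference below, effects of the array handling and of the knockdown cannot be told apart. Luminal prostate markers were present in both groups, with 6 of 6 measured markers past the filter. Of the measured markers of other cell types, 1 of 4 basal, 7 of 9 fibroblast, 4 of 4 smooth muscle, 2 of 5 endothelial and 2 of 3 leukocyte genes passed it, most of them at low intensity. The summed smooth muscle intensity was 142.1 to 176.9 in control and 225.2 to 257.3 in knockdown arrays, through ACTA2 (a log2 difference of 0.95), while the fibroblast sum was 389.6 to 418.3 and 403.9 to 447.9, with log2 differences from -0.28 (VIM) to 1.01 (COL3A1) among its genes. For leukocytes, ITGAM (log2 means of 4.54 in control and 4.57 in knockdown arrays) and CD3E (4.13 and 4.18) passed, while PTPRC did not. For endothelium, VWF (5.39 and 5.40) and PECAM1 (4.06 and 4.15) passed, while KDR, CDH5 and TEK did not. The part of these markers in the results was not tested.

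The filter asked for a value of log2 4 or more (an intensity of 16) on 3 or more arrays, and 18 of the 29 member probe sets did so. In the limma fit over the 15852 probe sets past the filter, with Benjamini-Hochberg adjustment, 8 of these 18 were called higher in knockdown cells at an adjusted p under 0.05 and 1 was called lower. Of all probe sets tested, 16.6% were called higher and 17.8% lower. Because the members were chosen on this contrast, nothing is read from their count. At least 2-fold and called higher were 3 member probe sets, one each of FGFR3, SPRY1 and SPRY2, against 0.732% of all probe sets. Nothing is read from this count either, for the same reason, and SPRY2 passed the filter through its knockdown arrays only. SPRY2 fell short of 2-fold with values under log2 4 raised to 4 (a log2 difference of 0.79).

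**Figure D1:**
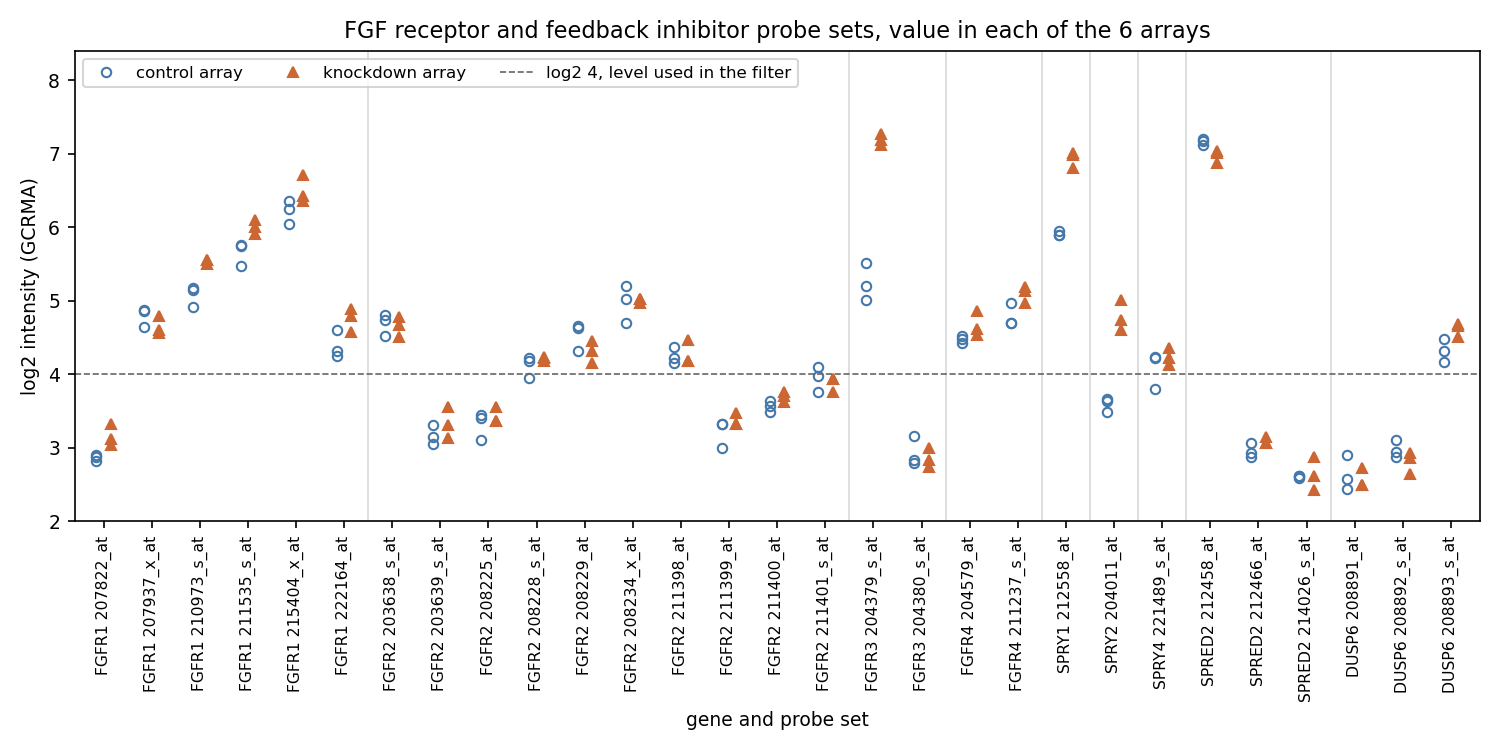
Log2 intensity of all 29 probe sets in each array, grouped by gene; open circles are the 3 control arrays, filled triangles the 3 knockdown arrays, and the dashed line marks log2 4. FGFR3 204379_s_at, SPRY1 212558_at and SPRY2 204011_at show a wide gap between the groups, and the 10 FGFR2 probe sets show none.

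Among the receptors, FGFR3 had the largest difference. On its probe set 204379_s_at the control arrays read 5.20, 5.01 and 5.51 and the knockdown arrays 7.27, 7.19 and 7.12. The knockdown arrays all lay above the control arrays, and they were closer to each other than the controls were. The difference was 1.95 on the log2 scale (limma SE 0.12), or 3.86-fold. In bulk RNA, more cells that express a gene and more RNA per cell cannot be told apart, here and for the genes that follow. The second FGFR3 probe set, 204380_s_at, did not show it: its control arrays read 2.83, 2.79 and 3.16 and its knockdown arrays 3.0, 2.83 and 2.75. All 6 of those values lie under the filter and the groups overlap. The FGFR3 difference thus rests on 1 of 2 probe sets.

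FGFR1 had 6 probe sets, of which 5 passed the filter and 3 were called higher. The clearest was 210973_s_at, at 5.15, 4.91 and 5.17 in control arrays and 5.56, 5.50 and 5.56 in knockdown arrays, a log2 difference of 0.47 (SE 0.08). Every knockdown array was above every control array, and knockdown arrays 1 and 3 carried exactly the same intensity. On 211535_s_at the control arrays read 5.76, 5.75 and 5.48 and the knockdown arrays 5.91, 6.09 and 6.0, a log2 difference of 0.34 (SE 0.09). The groups were again apart, but by a narrow margin, and the call was lost without knockdown array 2 (0.30) or 3 (0.34). The brightest FGFR1 probe set, 215404_x_at, read 6.36, 6.24 and 6.04 against 6.43, 6.36 and 6.71, and was not called (0.28, SE 0.11), although its groups just missed overlapping. The probe set 222164_at was called higher (0.36, SE 0.11) although its groups overlap, and 207937_x_at was lower in knockdown cells without a call (-0.14, SE 0.09). The call of 222164_at was lost under 6 of 15 alternative settings, which were no filter, quantile normalization, and leaving out control array 1 or 2 or knockdown array 2 or 3. The last one, 207822_at, was under the filter in all arrays, with values from 2.82 to 3.32. Of the 6 FGFR1 probe sets, 3 were thus called higher, by at most 1.38-fold, and only the call of 210973_s_at was kept under all 15 alternatives that tested it.

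FGFR2, known as a receptor of epithelial cells, had 10 probe sets with values from 3.0 to 5.20, and the groups overlapped on all 10. Of these, 5 passed the filter and 0 were called by limma. Their differences ran from -0.22 to 0.10 on the log2 scale with SE of 0.08 to 0.12. The brightest, 208234_x_at, read 4.69, 5.20 and 5.03 in control arrays and 4.97, 5.03 and 5.03 in knockdown arrays, and 3 of these 6 arrays carried one identical intensity. The probe set with the largest difference, 208229_at, read 4.63, 4.32 and 4.66 against 4.16, 4.32 and 4.45 (-0.22, SE 0.11). It was called lower in knockdown cells in the fit without control array 2 (-0.33).

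FGFR4 had 2 probe sets, both past the filter and both near log2 5. On 211237_s_at the control arrays read 4.97, 4.70 and 4.70 and the knockdown arrays 5.13, 4.97 and 5.19. Control array 1 and knockdown array 2 share 1 intensity, so the groups touch. The log2 difference was 0.31 (SE 0.09), and the probe set was called higher. That call was lost with no filter and without control array 2 or 3 or knockdown array 1 or 3. On 204579_at the arrays read 4.48, 4.52 and 4.42 against 4.53, 4.86 and 4.61, which do not overlap, and the difference of 0.19 (SE 0.09) was not called.

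Among the inhibitors, SPRY1 and SPRY2 had larger differences on the deposited values than SPRY4, SPRED2 and DUSP6. SPRY1, one of the inhibitors of receptor signalling to ERK, had 1 probe set (212558_at). Its control arrays read 5.95, 5.89 and 5.89 and its knockdown arrays 6.99, 6.80 and 7.0. The knockdown values lay above all controls, and the spread within either group was small beside the gap. The log2 difference was 1.02 (SE 0.07), or 2.03-fold. Under the 16 alternative settings it ran from 0.86 to 1.08.

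SPRY2, which acts at the same level of the pathway, also had 1 probe set (204011_at), and it was dimmer. The control arrays read 3.63, 3.48 and 3.66 and the knockdown arrays 5.01, 4.74 and 4.60. The knockdown arrays again lay above every control. The log2 difference was 1.19 (SE 0.11), or 2.29-fold on the deposited values. No control array reached log2 4, so the size of this fold is uncertain and SPRY2 passed the filter through its knockdown arrays only. Leaving out any knockdown array put it under the filter, with no call. With values under log2 4 raised to 4 the difference was 0.79, and on a log2(intensity + 16) scale it was 0.64.

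SPRY4 and SPRED2 did not follow. SPRY4 (221489_s_at) read 4.24, 4.22 and 3.80 in control arrays and 4.12, 4.36 and 4.22 in knockdown arrays. The groups overlapped, and the difference of 0.15 (SE 0.12) was not called. SPRED2, a membrane-bound relative of the Sprouty proteins that holds back RAF activation, was brightest on 212458_at, at 7.17, 7.19 and 7.12 in control arrays and 7.04, 6.88 and 7.01 in knockdown arrays. All knockdown arrays lay below all controls, by a log2 difference of -0.19 (SE 0.06), and this was the 1 member probe set called lower. That call was lost when any single array was left out, with differences from -0.22 to -0.14. The other SPRED2 probe sets, 212466_at and 214026_s_at, were under the filter, with values from 2.43 to 3.14 and overlapping groups.

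DUSP6, the cytoplasmic ERK phosphatase, was near or under the filter on all 3 of its probe sets. On 208893_s_at the control arrays read 4.49, 4.32 and 4.17 and the knockdown arrays 4.65, 4.51 and 4.69. The knockdown arrays lay just above the controls, with a log2 difference of 0.29 (SE 0.09), and the probe set was called higher. The call was lost under 8 of 14 alternative settings: without control array 2 or 3 or knockdown array 1 or 3, with no filter, with quantile normalization, with a trended and robust variance model and with the replicate block. The probe sets 208891_at and 208892_s_at read between 2.45 and 3.10, with overlapping groups and differences of -0.07 and -0.16.

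**Figure D2:**
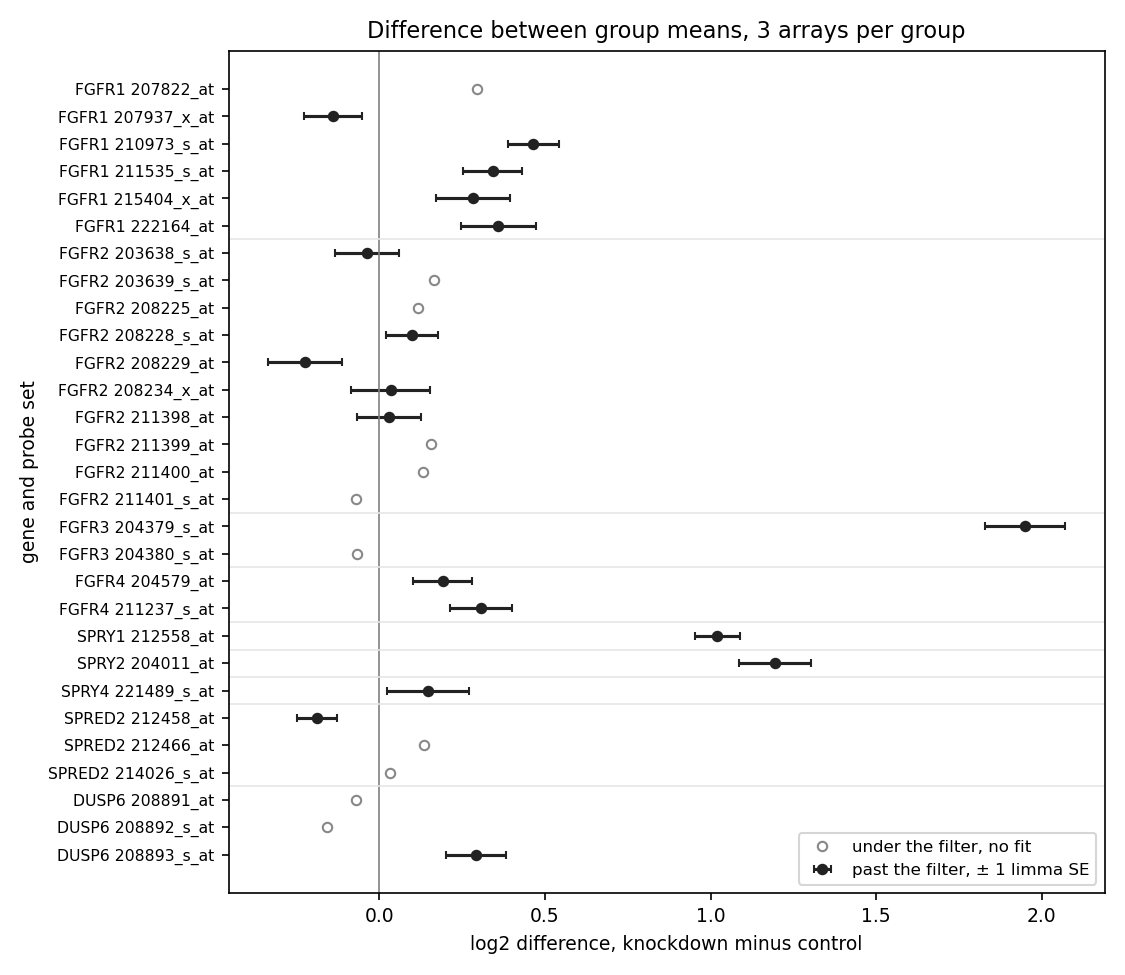
Log2 difference between the group means (knockdown minus control) for all 29 probe sets; filled points with bars are those past the filter, ± 1 limma SE, and open points those under it. FGFR3 204379_s_at (1.95), SPRY2 (1.19) and SPRY1 (1.02) stand to the right of the rest, which lie between -0.22 and 0.47.

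The groups did not overlap on 9 of the 18 member probe sets past the filter, 8 with knockdown above and 1 with knockdown below. Among all probe sets past the filter this held for 48.3% (24.3% with knockdown above and 24% below). Of the 11 member probe sets under the filter the groups were apart on 1, FGFR1 207822_at, against 13.8% of all such probe sets. Exact repeats of one intensity across arrays were frequent at these low levels. They occurred in 6 of the 18 member probe sets past the filter and 8 of the 11 under it, against 24.4% and 52% of all probe sets. FGFR3 204379_s_at, SPRY1 and SPRY2 had no such repeat.

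For the rest of the pathway 6 gene lists without the members were read in a fit over 9241 genes, each gene represented by its brightest probe set. The lists were chosen with earlier results of these data known, so their counts and p-values are a description only. In that fit 19.4% of all genes were called higher and 16.5% lower, and the median log2 difference was 0.03. Of 74 pathway genes tested, 15 rose and 10 fell, with a median of 0.04.

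FGF ligands were not called in either direction. Of 22 ligand genes, 9 passed the filter, and their log2 differences ran from -0.07 to 0.32 (0 called by limma at an adjusted p under 0.05). FGF22 had the largest, from 4.24 ± 0.22 to 4.55 ± 0.07 (SD, n = 3; limma adjusted p = 0.0504). Its groups were dim, and FGF22 was called higher under 5 of 15 alternative settings. FGF2, FGF7 and FGF10 were among the ligands under the filter or without a probe set of their own.

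Among co-receptors and heparan sulfate genes, 3 of 13 rose and 3 fell, with a median of 0.04. The syndecans, transmembrane proteins that carry heparan sulfate chains, split. SDC2 rose from 5.51 ± 0.16 to 6.55 ± 0.09 (SD, n = 3), a log2 difference of 1.04 (limma adjusted p = 0.000166), and its other probe sets differed by 0.73 and 0.35. SDC1 rose by 0.49 (limma adjusted p = 0.000483), while SDC4 fell from 7.78 ± 0.04 to 7.05 ± 0.19 (-0.73, limma adjusted p = 0.000997). EXT1, a polymerase of the heparan sulfate chain, fell by 0.69 on the log2 scale (limma adjusted p = 0.000648).

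The signal route between receptor and ERK moved little. Of 12 receptor adaptors, 2 rose (PIK3R1 by 0.32 and PLCG1 by 0.25, limma adjusted p = 0.013 and 0.0212) and 1 fell (SHC1, -0.14, limma adjusted p = 0.049), with a median of 0.06. The SHC1 call was lost under 9 of 16 alternative settings. The other probe sets of PIK3R1 differed by -0.12 and, for a dim one under the filter, -0.82, and that of PLCG1 by -0.07. The calls of PIK3R1 and PLCG1 were lost with the mean of a gene's probe sets. Of 11 genes of the RAS to ERK cascade, 2 rose and 2 fell, with a median of -0.05. RPS6KA3, a ribosomal S6 kinase that ERK activates, fell from 10.19 ± 0.05 to 8.85 ± 0.03 (SD, n = 3), a log2 difference of -1.34 (limma adjusted p = 3.87e-06). Its relatives RPS6KA1 (-0.28) and RPS6KA2 (0.30) were called in opposite directions, and each call was lost under 8 of 17 alternative settings. MAP2K2, the ERK kinase MEK2, rose by 0.20 and its call was lost under 3 of 17.

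Other feedback inhibitors also split, with 4 of 13 rising, 3 falling and a median of 0.01. This list also holds genes such as SOCS2 and FLRT2, which are not known chiefly as inhibitors of FGF receptor signalling. DUSP2, a nuclear MAP kinase phosphatase, rose from 7.72 ± 0.05 to 8.83 ± 0.14 (SD, n = 3), a log2 difference of 1.11 (limma adjusted p = 6.08e-05). SOCS2, a suppressor of cytokine signalling, rose by 1.01 (limma adjusted p = 6.67e-05), and 0.58 on its other probe set. DUSP9, a cytoplasmic phosphatase of ERK like DUSP6, rose by 0.82 (limma adjusted p = 0.000464). FLRT2, a membrane protein of a family that binds FGF receptors, fell by 0.99 on its brightest probe set (limma adjusted p = 0.00126), and differed by 0.20 on the other.

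Of 16 transcripts known to respond to ERK, 4 rose and 1 fell, with a median of 0.07. ETV1, an ETS transcription factor, rose by 2.87 on its brightest probe set (limma adjusted p = 1.49e-05), and its others differed by 0.39 to 0.50. PHLDA1 rose by 0.43 on its brightest probe set (limma adjusted p = 0.0028) and FOSL1 by 0.38 (limma adjusted p = 0.00557). No FOSL1 control array reached log2 4, so FOSL1 passed the filter through its knockdown arrays only. The other probe sets of PHLDA1 differed by 0.54, -0.13, -0.23 and, for a dim one under the filter, -0.12. The PHLDA1 call was lost with the mean of its probe sets and the FOSL1 call with values under log2 4 raised to 4. CCND1, the cyclin of G1 entry, fell by 0.58 on the log2 scale (limma adjusted p = 0.00081), while its other probe set differed by 0.08 the other way.

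**Figure D3:**
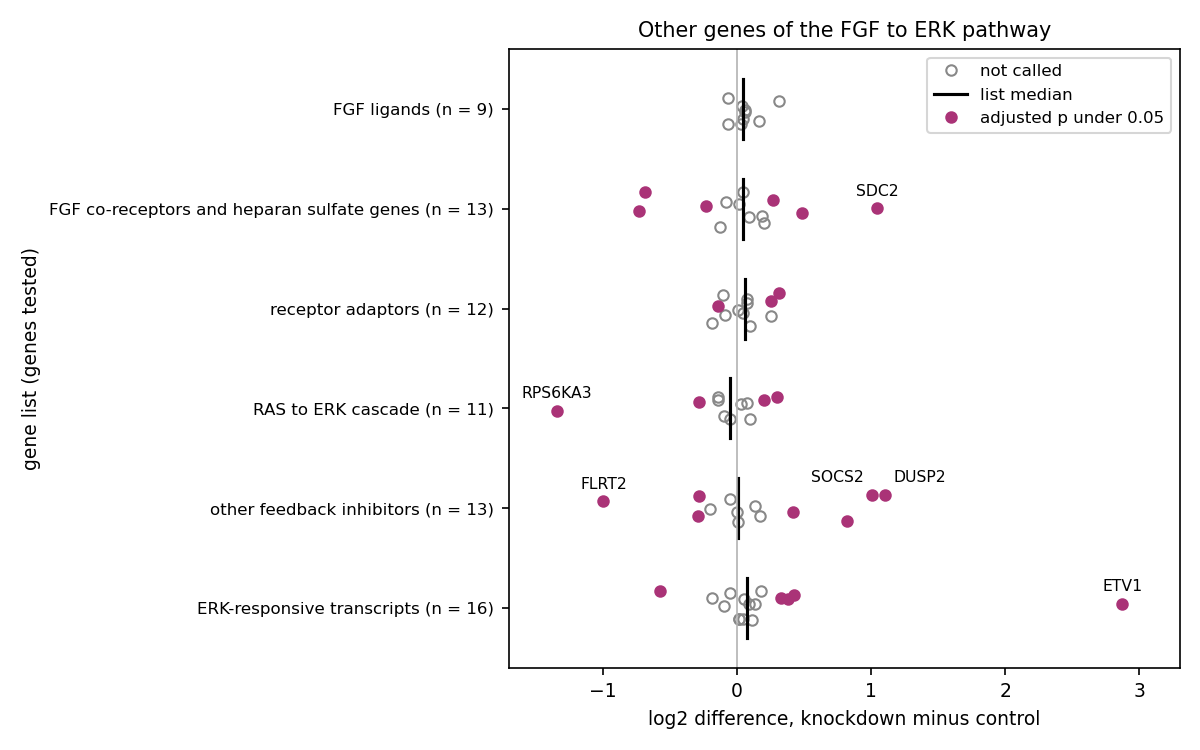
Log2 difference (knockdown minus control) of each tested gene in 6 pathway lists; filled points have a limma adjusted p under 0.05, open points do not, vertical bars mark the list medians and points are spread vertically at random. All list medians lie between -0.05 and 0.07, with called genes on both sides of 0 in 5 lists and none among the FGF ligands.

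The chromosomal neighbours of FGFR3, SPRY1 and SPRY2 were read last, a comparison chosen after the values were seen. For each, the 3 nearest tested genes on either side were taken by RefSeq order (GRCh38.p14), in which 9238 of the 9241 genes were found. Order alone was used and untested genes were skipped. Distances are not given here, so a neighbour may lie far from its member. Of all genes in that fit, 19.4% were called higher and 16.5% lower. All 6 neighbours of SPRY2 on chromosome 13 fell, from -0.27 for RBM26 to -1.13 for the chaperone DNAJC3 (limma adjusted p values of 0.000108 to 0.0484). SPRY2 itself was higher, but it passed the filter through its knockdown arrays only. Around SPRY1 on chromosome 4, HSPA4L (-0.64) and PLK4 (-0.53) fell and the other 4 genes were not called, at -0.47 to 0.14. Around FGFR3 on chromosome 4, MAEA (0.25) and LETM1 (0.33) rose, HAUS3 fell (-0.22), and SLBP, TACC3 and NSD2 were not called, at -0.17 to 0.04. None of the 18 neighbours had a difference as large, in the same direction, as that of its member. The members were taken for their large differences, so nothing is read from this comparison of sizes.

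**Figure D4:**
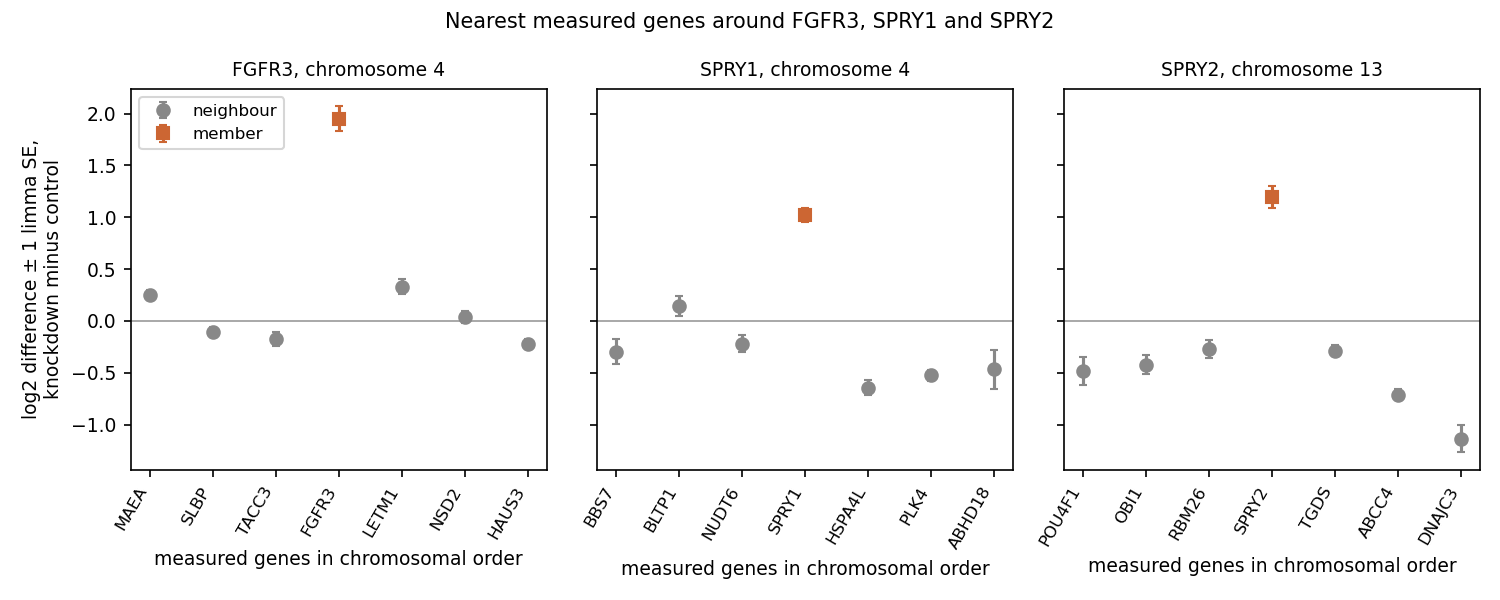
Log2 difference (knockdown minus control) of FGFR3, SPRY1 and SPRY2 (squares) and of the 3 nearest tested genes on each side in chromosomal order (circles), ± 1 limma SE. The members lie at 1.95, 1.02 and 1.19, and their neighbours between -1.13 and 0.33.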

How the data were processed

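Biotinylated cRNA was prepared from 2 ug of Trizol-extracted total RNA and hybridised to 1-colour Affymetrix arrays, per the labels' protocols. The authors deposited probe set intensities after GCRMA, a step named in the submitters' processing notes, whose version is not given in the sources used here. Their scale was linear, read from the deposited intensity range (3.82 to 22631.5; array medians 48.23 to 50.31). Arrays have no read depth, and their number limits the precision. Intensities were log2-transformed, control probe sets removed, and limma 3.58.1 in R 4.3.3 (lmFit, eBayes) fitted to all probe sets past the filter, and again to genes, with probe sets of 1 symbol only. Every member probe set was described. From each pathway list up to 4 called genes with the largest difference were named, or otherwise the gene with the largest; no list held a member. Members, lists and alternatives were chosen with earlier results of these data known. Alternatives covered the filter, low values, normalization, the variance model, array weights, the replicate block, probe set handling and leaving out each array. Tests were checked on simulated arrays. A planned protein comparison was not run. Replicate numbers were not used to pair the arrays in the main fit. Motifs and neighbours came from RefSeq tables.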

Additional observations from a re-analysis of the deposited data

How the results depend on the processing

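These values describe the settings and give no support to the members, which were chosen on this contrast. The log2 difference ran from 1.59 to 2.08 for FGFR3 204379_s_at and from 0.86 to 1.08 for SPRY1. For SPRY2 it ran from 0.64 to 1.23 in 12 of 16 alternatives, and in the other 4 (the filter at log2 5, or without any 1 knockdown array) the probe set failed the filter. The 8 member probe sets called higher became 4 with the filter at log2 5 and 3 without _x_at and _s_at probe sets, which removes FGFR3 204379_s_at, and ranged from 3 to 7 when 1 array was left out (3 without knockdown array 3). The 1 called lower, SPRED2, became 0 with no filter, with quantile normalization, with median centring and without _x_at and _s_at probe sets, and 0 to 1 when 1 array was left out, the 1 being FGFR2 208229_at without control array 2. With the replicate number as a block it also became 0, with 7 called higher; correlations of same-numbered arrays were 0.11, -0.02 and 0.12, and 2 of 3 control and 2 of 3 knockdown arrays correlated best with their own number. Pathway genes called lower, 10, became 6 with median centring (19 higher), and 6 to 7 with 1 array left out. Over all probe sets, median centring gave 3389 higher and 2410 lower, against 2624 and 2823, and leaving out _x_at and _s_at probe sets gave 1311 and 1155, from fewer probe sets tested. Without them CCND1 turned to 0.0779. The cause of the other changes was not tested. The normalization alternatives for control and FOLH1 probe sets were chosen after seeing the data, and none moved a difference beyond its spread. Effects of the array handling and of the knockdown still cannot be told apart. Of the 29 member probe sets, 11 were under the filter and many of the others lie only a little above log2 4. At such levels signal over background limits what differences could be seen.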
